A study of Mus musculus with 2 samples.

Results

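Potassium channel genes of the mouse were followed here through the order in which the genome is copied in S phase. They were taken as all protein-coding RefSeq genes whose symbol starts with Kcn, which leaves out the non-coding Kcnq1ot1. There were 94 of them among 21221 protein-coding genes with a value, and every one had a measured position within 5.03 kb of its midpoint. The names fall into 19 subfamily letters, or 21 groups once beta subunits (Kcnab) are set apart from the Kcna pores and Kcnmb from Kcnma1.

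The material was 46C embryonic stem cells of strain 129P2/Ola, grown on gelatin with leukemia inhibitory factor. After 2 h in 50 µM bromodeoxyuridine (BrdU), a thymidine analogue built into newly made DNA, cells were sorted by DNA content into an early S fraction and a late S fraction. BrdU-labelled DNA from 10000 cells was precipitated, amplified and sequenced as 1 library per fraction. The authors combined both libraries in 1 score per genomic position, smoothed over 300 kb. Its log base, scaling and zero point are not stated by the labels or headers, and a positive value is taken to mean early because the table's name puts early first. No replicate exists, so there is no error between experiments and no test, and the read depth is unknown. Counts and medians of the potassium channel genes are therefore described beside those of all protein-coding genes.

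Potassium channels are membrane pores that let potassium ions leave the cell, which sets the resting voltage and ends action potentials. Voltage-gated pores open on depolarisation, inward rectifiers pass current best near rest, tandem-pore channels carry background leak, and a further class opens with intracellular calcium or sodium. Accessory proteins change the gating or the surface level of the pores. Replication timing is a regional property: large domains are copied together, and gene-rich open chromatin is generally copied before gene-poor chromatin.

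The potassium channel genes were spread over nearly the whole range of the score. Of the 94 genes, 56 (59.6%) lay above 0, against 73.5% of all protein-coding genes. Their median was 0.62 (95% order-statistic interval of the median over genes -0.039 to 1.06), against 1.02 for all protein-coding genes. The interval takes the genes as independent, although 30 of the 94 lie in sets of neighbours, and it holds no experimental error. The quartiles were -0.59 and 1.44 in the channel genes and -0.082 and 1.52 in all genes, so the channel genes reached further down while the upper quartiles lay close together. Below 0 were 38 channel genes, against 26.5% of all genes. Scores above 1 were found for 39 channel genes, against 50.5% of all genes, and scores below -1 for 17 channel genes, against 9.59% of all genes. With the zero point moved to the median of the autosomal positions (-0.30), 65 of 94 (69.1%) lay above it, against 78.5% of all genes.

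The latest and the earliest member were both voltage-gated pore genes. Kcna4, which encodes a fast inactivating Shaker-type channel (chromosome 2, 107290589 to 107326804 in build mm10), had -1.91, and no other protein-coding gene with a value scored lower. Kcnh3, a gene of the ether-a-go-go family (chromosome 15, 99224517 to 99242818), had 2.00, with 48 protein-coding genes above it. The next latest were Kcnj15 (-1.48), Kcnh7 and Kcnh5 (both -1.45) and Kcnip4 (-1.38). The next earliest were Kcnj4 (1.90), Kcnn1 (1.84), Kcnh4 and Kcnj14 (both 1.82). Both ends of the list thus mixed several families.

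**Figure D1:**
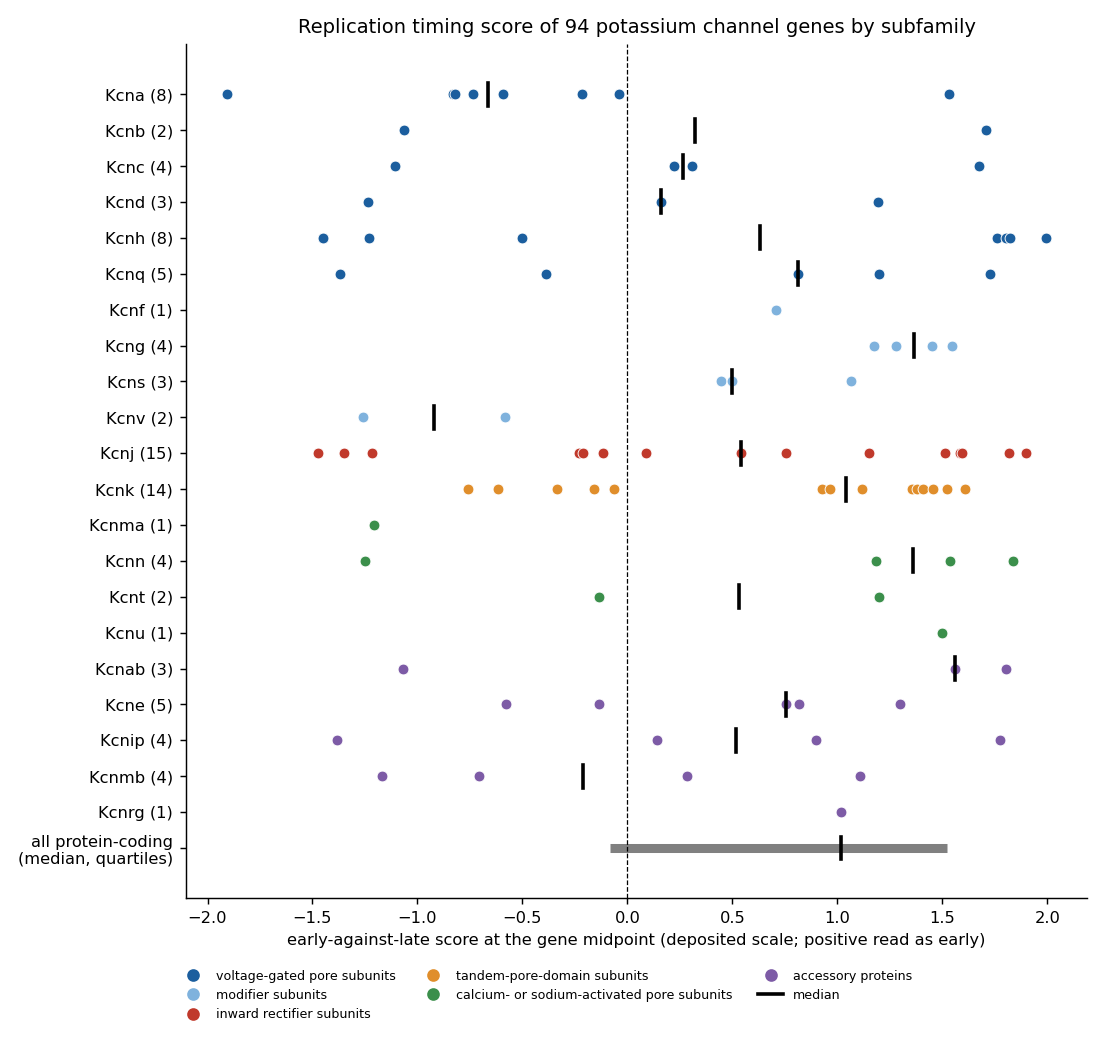
Early-against-late score at the midpoint of each of the 94 potassium channel genes (points, coloured by role), with 1 line per group, the number of genes in parentheses and a black bar at the median of groups of 2 or more. Kcnu1 is coloured with the calcium- or sodium-activated pores as a relative of Kcnma1. The bottom line gives the median and quartiles of all 21221 protein-coding genes. Left of 0 lie 7 of the 8 Kcna genes and 4 of the 8 Kcnh genes, against 26.5% of all protein-coding genes.

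The voltage-gated pore genes lay on both sides of 0. Of their 30 members, 14 (46.7%) lay above 0, against 73.5% of all protein-coding genes. The median was -0.13, against 1.02 for all protein-coding genes. The Kcna subfamily, the Shaker-type channels of axons, heart and lymphocytes, carried much of this. Only 1 of its 8 genes, Kcna7 at 1.53, lay above 0, against 73.5% of all protein-coding genes, and the median was -0.66. Most of the 8 sit in the trios described below, so they do not count as 8 separate measurements. With the autosomal median as zero, 3 of the 8 lay above it, against 78.5% of all genes. Kcna3, the channel of T lymphocytes, had -0.83 and Kcna5, of the cardiac atrium, -0.82. The axonal channel genes Kcna1 and Kcna2 had -0.74 and -0.59. Kcna6 at -0.22 and Kcna10 at -0.039 stood close to 0, and both pass above it if the autosomal median serves as zero (0.087 and 0.27).

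The Kcna genes that sit together lay on or beside timing slopes. Kcna3, Kcna2 and Kcna10 follow each other on chromosome 3 (107036162 to 107195721), with midpoints over 152 kb, and along this stretch the score climbed through -0.83, -0.59 and -0.039. The Shaw-type gene Kcnc4, whose midpoint is 260 kb beyond that of Kcna10, had 0.22. Kcna5, Kcna1 and Kcna6 form another trio on chromosome 6 (126532551 to 126740834), with midpoints over 191 kb and scores of -0.82, -0.74 and -0.22. From Kcna5 to Kcna1 the score stayed nearly level, and the climb lay beyond Kcna1. In both places the score was late on one side and above 0 on the other: 250 kb below the Kcna2 midpoint it was -1.24 and 250 kb above it 0.26, and around Kcna1 it was -0.90 and 0.40. Each trio fits inside 1 smoothing window, so the scores within it are not independent of each other.

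Kcna4 and Kcna7 stand alone at opposite levels. Around Kcna4 the score was -0.97 at 250 kb below the midpoint and -1.20 at 250 kb above it, so the gene lay at the bottom of a dip in a late run of 3.08 Mb. Its only protein-coding neighbours within 500 kb were Fshb, the beta subunit gene of follicle-stimulating hormone, at -0.97 and Arl14ep at -0.44. Kcna7 lay in an early plateau, with 1.51 and 1.85 at the same distances and 0.23 at 750 kb above the midpoint, and had 68 protein-coding genes within 500 kb. Kcnh3 likewise had 34, and the closest in score were Fmnl3 (1.98), Mcrs1 (2.03) and Prpf40b (2.08).

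**Figure D2:**
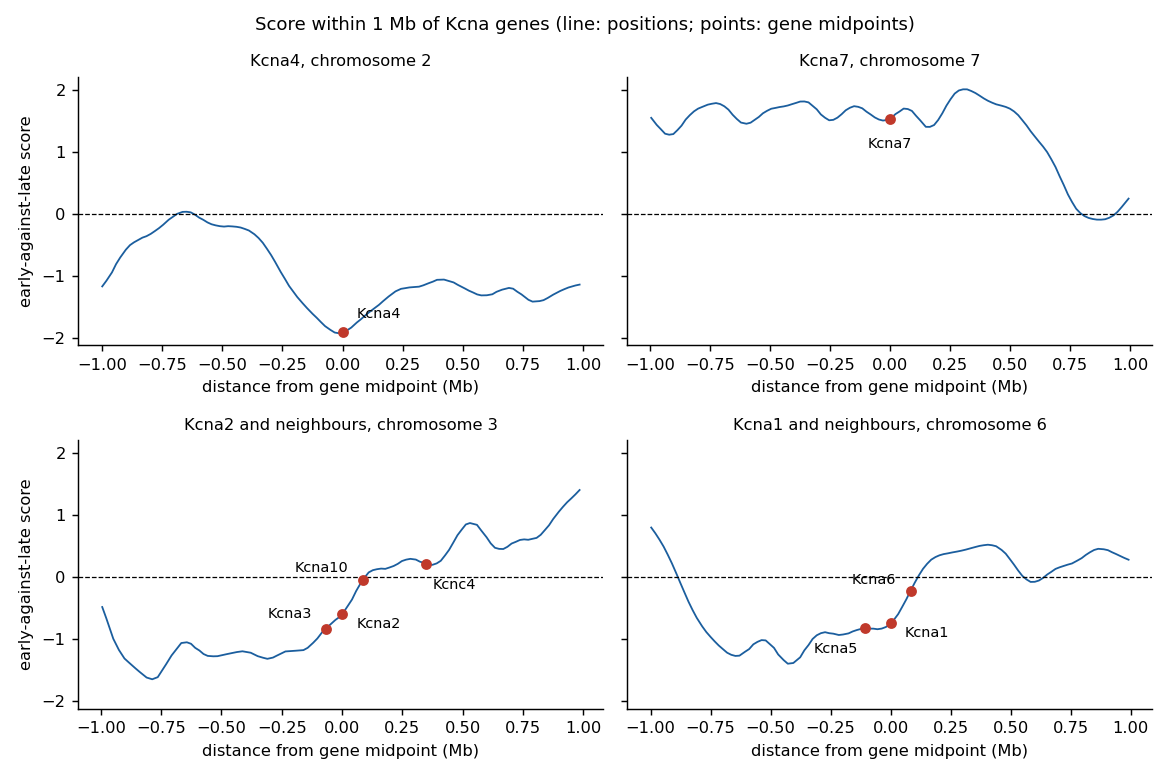
Score of the deposited positions (line) against distance from the midpoint of Kcna4, Kcna7, Kcna2 and Kcna1 in Mb, with the midpoints of potassium channel genes as points. Kcna4 sits at the bottom of a dip, Kcna7 on an early plateau, and both trios on or beside slopes that cross 0.

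Of the 8 Kcnh genes, the ether-a-go-go family, 4 lay above 0, against 73.5% of all protein-coding genes. Parted by the sign of the score, the early and late genes did not overlap in gene length. Among all 719 protein-coding genes of 250 kb or more, 25.7% lay above 0. Among all those of 10 to 30 kb and of 30 to 100 kb, 83.5% and 80.6% did. With 8 genes, both sides of the split are near these shares. Kcnh3 (2.00), Kcnh4 (1.82), Kcnh2 (1.80), which encodes the rapid delayed rectifier of the heart, and Kcnh6 (1.76) were early and 18.3 to 32.1 kb long. Kcnh7 (-1.45), Kcnh5 (-1.45), Kcnh8 (-1.23) and Kcnh1 (-0.50) were late and 280 to 491 kb long. Among the Kcnq genes, Kcnq1, the slow delayed rectifier of heart and epithelia, had 0.81, Kcnq3, a gene of the neuronal M-current, -0.39 and Kcnq5 -1.37. Kcnq1 is imprinted, and maternal and paternal alleles are merged in this score.

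Small families of voltage-gated pores held early and late members side by side. The delayed rectifier gene Kcnb2 had -1.07. Among the Kcnc genes, which serve fast-spiking neurons, Kcnc1 had 0.31, Kcnc4 0.22 and Kcnc2 -1.11. Among the Kcnd genes of the A-type current, Kcnd1 on chromosome X had 1.19, Kcnd3 0.16 and Kcnd2 -1.24. In the Kcnc and Kcnd families the latest gene was also the longest, as described for the whole set further on.

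Of the 10 modifier subunit genes, whose products form channels only together with Kcnb subunits, 8 lay above 0, a share near the 73.5% of all protein-coding genes. All 4 Kcng genes lay between 1.17 (Kcng4) and 1.54 (Kcng1), with Kcng2 at 1.28 and Kcng3 at 1.45, the narrowest spread of any group of 4 or more. Kcns1 (1.06), Kcns3 (0.50), Kcns2 (0.44) and Kcnf1 (0.71) were early too. Below 0 were Kcnv1 at -1.26, inside a late run of 8.69 Mb, and Kcnv2 at -0.58.

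Of the 15 inward rectifier genes 9 lay above 0, against 73.5% of all protein-coding genes, with medians of 0.54 and 1.02. The highest were Kcnj4 (1.90), Kcnj14 (1.82), Kcnj12 (1.59), Kcnj9 (1.58) and Kcnj10 (1.51), the last a channel of glia. Kcnj13 had 1.15 and Kcnj11, the pore gene of the ATP-sensitive channel of pancreatic beta cells, 0.76. The late end was formed by Kcnj15 (-1.48), Kcnj16 (-1.35) and Kcnj2 (-1.22), the classical inward rectifier of heart and muscle. Kcnj3 (-0.23), the kidney channel gene Kcnj1 (-0.21), Kcnj5 (-0.12) and the vascular ATP-sensitive pore gene Kcnj8 (0.087) stood near 0.

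Of the 14 tandem-pore genes 9 lay above 0, against 73.5% of all protein-coding genes, with medians of 1.04 and 1.02. None scored below -1, against 9.59% of all protein-coding genes, and with 14 genes this count is near the background. Kcnk6 (1.61), Kcnk4 (1.52), Kcnk5 (1.46), Kcnk16 (1.41), Kcnk13 (1.38), Kcnk7 (1.36) and Kcnk12 (1.12) exceeded 1. Kcnk15 (0.96) and the acid-sensitive leak channel gene Kcnk3 (0.93) followed. Below 0 were Kcnk2 (-0.76), a mechanically gated channel gene, Kcnk9 (-0.61), an acid-sensitive relative of Kcnk3, Kcnk10 (-0.33), Kcnk1 (-0.16) and Kcnk18 (-0.066).

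Calcium- and sodium-activated pores, with Kcnu1 added as a relative of Kcnma1, again paired early with late relatives. Kcnn1 (1.84), Kcnn4 (1.54) and Kcnn3 (1.18) were early, and Kcnn2 was late at -1.25. All 4 encode small- or intermediate-conductance calcium-activated channels. The large-conductance channel gene Kcnma1 had -1.21, while Kcnu1, its sperm-specific relative, had 1.50. Of the sodium-activated channel genes Kcnt1 had 1.20 and Kcnt2 -0.13.

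Among the 17 accessory genes 11 lay above 0, against 73.5% of all protein-coding genes, with medians of 0.75 and 1.02. The beta subunit genes Kcnab3 and Kcnab2 had 1.80 and 1.56, and Kcnab1 had -1.07. Of the Kcnip genes, whose calcium-binding products attach to Kcnd channels, Kcnip2 had 1.77, Kcnip3 0.90, Kcnip1 0.14 and Kcnip4 -1.38. Of the Kcne genes, single-span subunits, Kcne3 had 1.30, Kcne1 0.82 and Kcne2 0.75, while Kcne1l on chromosome X had -0.13 and Kcne4 -0.58. The Kcnmb genes, beta subunits of the Kcnma1 channel, had 1.11 (Kcnmb3), 0.29 (Kcnmb4), -0.71 (Kcnmb1) and -1.17 (Kcnmb2). Kcnrg, which regulates voltage-gated channels, had 1.02.

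In most families the longest gene was also the latest. Of 17 groups with 2 or more genes, the longest gene was the latest in 13, and the exceptions were Kcne, Kcng, Kcnj and Kcns. Several groups are small and some differ little in length, such as Kcnv1 (19.8 kb) and Kcnv2 (15.1 kb). The same count was not made for other gene families, so the 13 has no background share. Genes of 250 kb or more made up 17 of the 94 (18.1%), against 3.39% of all protein-coding genes, and 9 of the 17 were voltage-gated pore genes. Of these long channel genes 3 lay above 0, which is 17.6%, against 25.7% of all 719 protein-coding genes of that length. The 3 were Kcnq1 (0.81, 320 kb), Kcnj6 (0.54, 253 kb) and Kcnip1 (0.14, 364 kb). The longest members were all late: Kcnip4 (1136 kb, -1.38), Kcnma1 (713 kb, -1.21), Kcnq5 (564 kb, -1.37), Kcnd2 (514 kb, -1.24) and Kcnh7 (491 kb, -1.45).

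Without the genes of 250 kb or more, a limit chosen after the values were seen, 53 of 77 channel genes (68.8%) lay above 0, against 75.2% of all protein-coding genes under that length, and the channel median was 1.02. Late members were not all long. Kcna4 is 36.2 kb, Kcnj15 42.7 kb, Kcnj2 10.7 kb and Kcna3 1.97 kb. Across the 94 genes Spearman's rho between length and score was -0.34 and Pearson's r with the logarithm of length -0.39. Over all 21221 protein-coding genes the same values were -0.034 and 0.024. Among the 71 genes under 100 kb rho was 0.13. These correlations run across genes of 1 pair of libraries that share chromosomal neighbourhoods.

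The number of genes around a channel gene went with its score more closely than its length did. All 29 channel genes with 20 or more protein-coding genes within 500 kb lay above 0 (median 1.53), against 81.0% of all protein-coding genes in such surroundings. Of the 23 with at most 4 such neighbours 1 lay above 0 (median -1.21), against 31.1% of all genes. The 1 was Kcnj6. With 5 to 9 neighbours 10 of 20 lay above 0, and with 10 to 19 neighbours 16 of 22, against 70.2% and 82.2% of all genes. Spearman's rho was 0.81 across the 94 channel genes and 0.44 across all 21221 genes, again as a description without a test. Sparse surroundings were held by 24.5% of the channel genes and 11.5% of all genes.

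**Figure D3:**
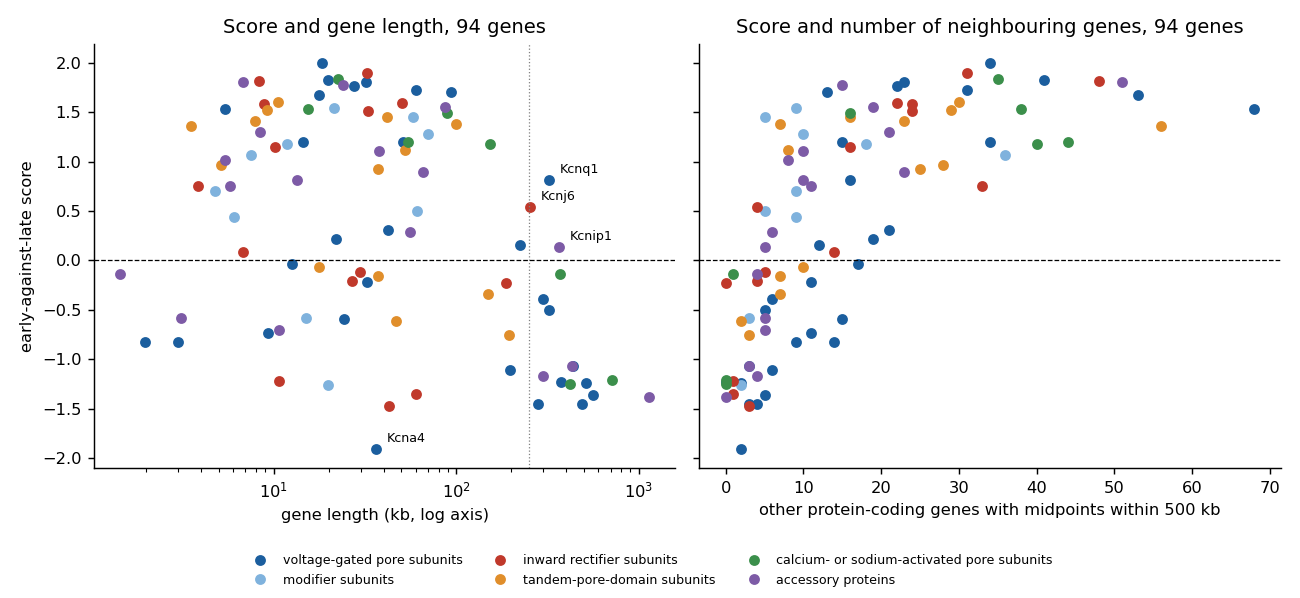
Score of the 94 potassium channel genes against gene length in kb (left, log axis, dotted line at 250 kb) and against the number of other protein-coding genes with midpoints within 500 kb (right). Most genes right of the dotted line lie below 0, and every gene with 20 or more neighbours lies above 0.

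Promoter sequence went with the score only weakly among the channel genes. The RefSeq promoter table for GRCm38.p6 (250 bases before to 50 after the start) matched 69 of the 94 genes. In each promoter the dinucleotide CG, which reads the same on both strands, was counted and divided by the number that its C and G content gives. It occurred at least once in 68 of the 69 and in 95.1% of 17029 promoters of all protein-coding genes. The ratio exceeded 0.6 in 21 channel promoters (30.4%), against 49.5% of all promoters. It did so in 14 of 38 early (36.8%) and 7 of 31 late (22.6%) channel genes, beside 58.7% and 24.4% of all early and late genes. Early and late here go by the midpoint score, and 5 of the 69 have a start of the other sign. Of these, Kcnj6 (ratio 1.04, start -0.55) and Kcnd3 (0.92, -0.62) count as early although their starts scored below 0. The ratios of the others, Kcnip1, Kcnj3 and Kcnk10, were below 0.6. The median ratio was 0.47 in the early and 0.41 in the late channel genes, beside 0.69 and 0.26 in all early and late genes. Spearman's rho with the score was 0.065 over the 69 channel genes, against 0.35 over all promoters. The 4 Kcna promoters that follow are shown because they span a late and an early gene with many and few CG, and include the lowest ratio of the 69. Each is the stretch of 250 bases before the start on the plus strand, with CG in capitals, for Kcna3 (chr3:107035912-107036161), Kcna10 (chr3:107182893-107183142), Kcna4 (chr2:107290339-107290588) and Kcna7 (chr7:45405710-45405959).
Kcna3: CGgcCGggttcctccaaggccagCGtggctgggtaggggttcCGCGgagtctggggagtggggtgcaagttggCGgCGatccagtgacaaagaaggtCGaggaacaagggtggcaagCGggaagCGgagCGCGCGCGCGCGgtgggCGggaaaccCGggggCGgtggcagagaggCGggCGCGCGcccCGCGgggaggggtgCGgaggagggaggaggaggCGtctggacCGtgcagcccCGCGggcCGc
Kcna10: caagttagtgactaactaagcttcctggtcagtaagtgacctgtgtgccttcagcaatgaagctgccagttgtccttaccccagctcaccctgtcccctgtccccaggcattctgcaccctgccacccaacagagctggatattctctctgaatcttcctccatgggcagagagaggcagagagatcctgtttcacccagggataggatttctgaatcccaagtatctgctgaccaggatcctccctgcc
Kcna4: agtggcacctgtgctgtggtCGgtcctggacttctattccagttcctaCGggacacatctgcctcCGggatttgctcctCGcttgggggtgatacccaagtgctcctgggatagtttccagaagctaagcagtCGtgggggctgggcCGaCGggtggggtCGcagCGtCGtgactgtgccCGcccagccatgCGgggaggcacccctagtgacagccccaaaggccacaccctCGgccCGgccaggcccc
Kcna7: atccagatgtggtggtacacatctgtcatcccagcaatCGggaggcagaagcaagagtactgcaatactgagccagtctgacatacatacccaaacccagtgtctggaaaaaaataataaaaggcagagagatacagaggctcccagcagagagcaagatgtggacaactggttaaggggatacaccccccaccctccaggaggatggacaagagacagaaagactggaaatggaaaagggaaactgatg
The Kcna3 stretch holds 31 CG and belongs to a late gene (-0.83), and the Kcna7 stretch holds 1 and belongs to the early gene (1.53). This picked pair runs against the order of the medians above and does not stand for the channel promoters as a set. Kcna10 has none, at a score near 0 (-0.039), and Kcna4, the latest, has 14. Over the 300 bases of the table their ratios were 0.95, 0.21, 0 and 0.58 in the order Kcna3, Kcna7, Kcna10, Kcna4.

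**Figure D4:**
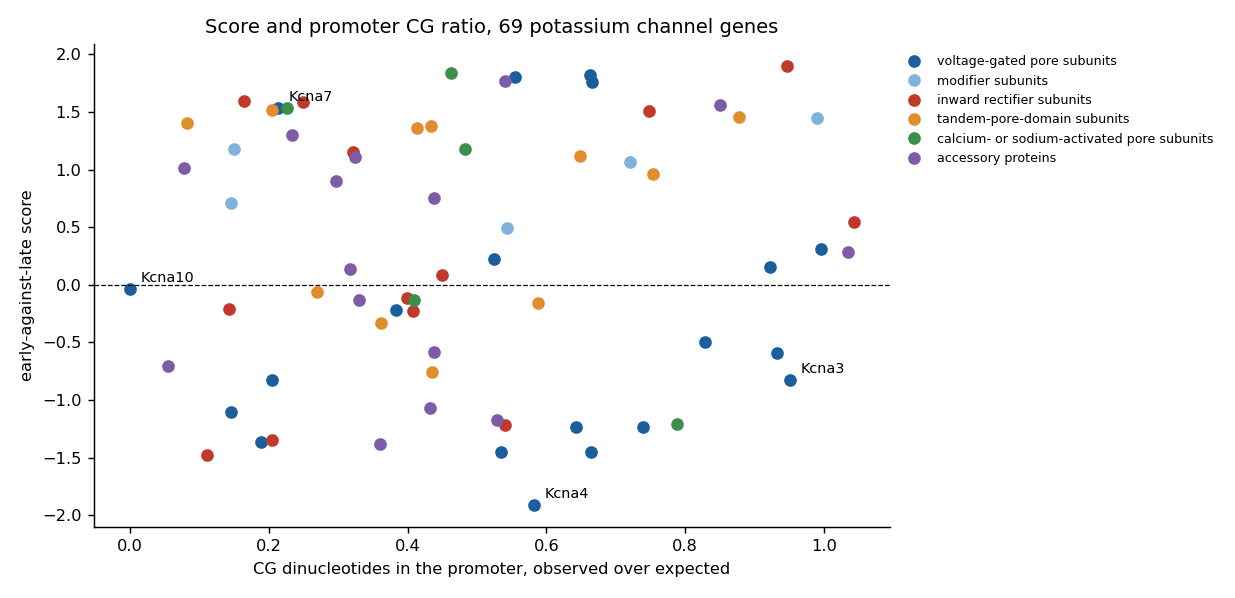
Score against the observed over expected number of CG dinucleotides in the 300-base promoter for 69 potassium channel genes, coloured by role, with the 4 Kcna genes whose sequence is printed named. Early and late genes occur at both low and high ratios.

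Some channel genes crossed the border between early and late. In 8 of 94 the ends of the gene differed in sign, against 2.97% of all protein-coding genes, and all 8 were 149 kb long or longer. From the lower to the higher coordinate, the ends of Kcnip1 had 1.29 and -0.83, and those of Kcnj6 had 1.21 and -0.55. Kcnb2 had -1.29 and 0.60, Kcnab1 -1.48 and 0.44, and Kcnq3 0.56 and -0.67. These genes span 33629339 to 33993348 on chromosome 11 (Kcnip1), 94744980 to 94997696 on chromosome 16 (Kcnj6), 15286925 to 15723751 on chromosome 1 (Kcnb2), 64949212 to 65378225 on chromosome 3 (Kcnab1) and 65986374 to 66286636 on chromosome 15 (Kcnq3). The others were Kcnk10 (-0.68 and 0.24), Kcnd3 (-0.62 and 0.53) and Kcnj3 (0.21 and -0.49). Of the 6 with a start in the promoter table, the start was late in Kcnab1, Kcnd3, Kcnip1 and Kcnj6 and early in Kcnj3 and Kcnk10. For these genes the midpoint score does not stand for the whole gene.

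**Figure D5:**
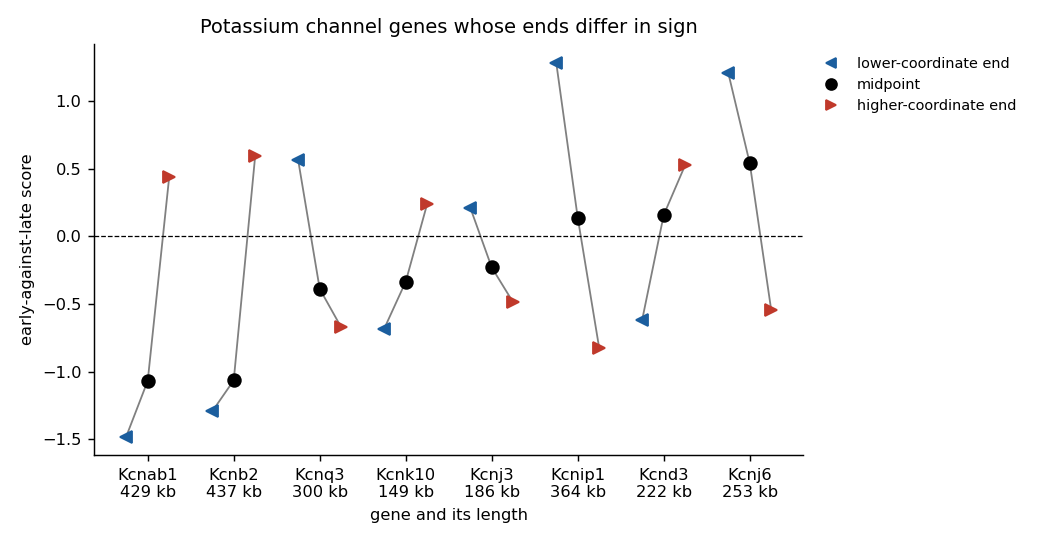
Score at the lower-coordinate end (blue), the midpoint (black) and the higher-coordinate end (red) of the 8 potassium channel genes whose ends differ in sign, with their length in kb. Kcnip1 and Kcnj6 fall below 0 toward the higher coordinate, and Kcnb2 and Kcnab1 climb above 0.

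Scores near 0 and changes of sign nearby were counted over all members, the 8 above among them. Within 0.25 of 0 lay 13 channel genes (13.8%), against 8.75% of all protein-coding genes. Such a score did not always mean a border close by. Kcnk18 (-0.066) and Kcnt2 (-0.13) lay 1350 and 753 kb from the nearer end of their runs. Scores of both signs occurred within 150 kb of the midpoint in 23 channel genes (24.5%), against 17.9% of all genes. Over that window the score of a channel gene ranged over a median of 0.56 and at most 1.93, against a median of 0.52 for all genes. Far from any border, Kcnj4 lay in an early run of 10.9 Mb, 4002 kb from its nearer end.

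Channel genes that neighbour each other shared a level in some places and differed in others. In all, 30 members fell into 12 sets of genes with midpoints at most 1 Mb from the next. Kcnj9 and Kcnj10 on chromosome 1 (1.58 and 1.51), Kcnk5 and Kcnk16 on chromosome 14 (1.46 and 1.41), Kcne1 and Kcne2 on chromosome 16 (0.82 and 0.75), Kcnj16 and Kcnj2 on chromosome 11 (-1.35 and -1.22) and Kcnj5 and Kcnj1 on chromosome 9 (-0.12 and -0.21) were close in score and at most 104 kb apart. Kcnk15 and Kcns1 on chromosome 2 (0.96 and 1.06) were 311 kb apart. Neighbours closer than the smoothing width share reads.

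Of the 12 sets, 4 held scores of both signs. Kcnmb2 (-1.17) and Kcnmb3 (1.11) on chromosome 3 differed by 2.28 over 433 kb, and Kcnj6 (0.54) and Kcnj15 (-1.48) on chromosome 16 by 2.02 over 408 kb. Kcnmb1 (-0.71) lies inside the span of Kcnip1 (0.14) on chromosome 11, with midpoints 157 kb apart. The last was the Kcna3 to Kcnc4 stretch. On chromosome 7, Kcna7 (1.53), Kcnj14 (1.82), Kcnj11 (0.76) and Kcnc1 (0.31) were all early, with the lowest scores toward the higher coordinate.

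Of 17 genes whose products join potassium channels without carrying the Kcn name, 13 lay above 0, beside 73.5% of all protein-coding genes, with a median of 0.93. The Kcnb partner gene Amigo1 (1.77), the scaffold gene Dlg4 (1.72), the lysosomal channel gene Tmem175 (1.56), Tmem38a (1.53) and Tmem38b (1.04) of the intracellular trimeric channels, and Lgi1 (1.22), a secreted partner of Kcna channels, were early. So were Lrrc26 (1.32), Lrrc52 (1.18) and Lrrc38 (0.93), gamma subunits of the Kcnma1 channel, while their relative Lrrc55 had -0.53. The anchoring gene Akap9 had 0.70 and Adam22, the receptor of Lgi1, 0.0094. Late were Dpp10 (-1.38) and Dpp6 (-0.52), partners of Kcnd channels, and Cntnap2 (-1.20), which clusters Kcna channels beside the nodes of axons. Dpp6 had 0.30 and 0.42 at its ends, and Cntnap2 -1.20 and 0.75. The sulfonylurea receptor genes Abcc8 and Abcc9 had 0.36 and 0.29.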

How the data were processed

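The deposited values are a score that the authors computed from the early S and late S libraries together, smoothed over 300 kb per the file name. Reads were aligned with Bowtie2 to mm10, per the submitters' processing notes. Neither labels nor headers state how reads were counted, or the scaling, log base and zero point, so the score is not read as a fold. If the order in the table's name were reversed, early and late would swap. The table held 384798 positions, of which 4 had no value, at a median spacing of 5778 bp. Every column of values was used (0 left out).

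Gene positions were RefSeq's for GRCm38.p6 (the same chromosome sequences as mm10), and 348 entries of scaffolds were left out. Each gene took the score of the position nearest its midpoint, within 100 kb (median distance 1.16 kb in the channel genes). A run was an unbroken stretch of positions of equal sign, and a gap above 300 kb closed it. Alternatives were another zero point, the gene ends, the transcription start (from the promoter table), means over the gene or within 150 kb, a limit of 10 kb, autosomes, neighbours joined within 1 Mb, pore genes, a mean, a band of 0.25 and a split at 0.5.

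Members, lists and alternatives were chosen with earlier results of these data known. Every member could be named. By rule, values are given for the highest and lowest of each group (all where it has 4 or fewer), the 5 highest, lowest and longest of all, members within 0.25 of 0, with ends of different sign, within 1 Mb of another member or on X, and 17 genes of channel complexes. Single values of a few members are not reported here. A planned comparison of protein sequences was not made, since no protein table was used here. Python 3.11.15, pandas 2.3.3, numpy 2.4.6, scipy 1.17.1 and matplotlib 3.10.9 were used. Gene assignment, runs and intervals were tested on simulated data.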

Additional observations from a re-analysis of the deposited data

How the results depend on the processing

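With 1 library per fraction the limit is the lack of replicates, and the depth is unknown. No paired analysis was possible because each fraction has 1 library and no test was made. The number of channel genes above 0 was 44 to 65 (of 76 to 94) and the median, or the mean, 0.39 to 1.02 over all alternatives except the transcription start. There the number was 37, because 69 genes have a start in the table, of which 38 lay above 0 at the midpoint, and the median was 0.19. The 37 are 53.6% of the 69, against 73.7% of all protein-coding genes with a start. At the lower and higher ends 57 of 94 lay above 0, against 74.0% and 73.9% of all genes. With the mean over the gene it was 56 of 94 against 73.6%, and on autosomes 55 of 92 against 74.4%. Above 0.5 lay 48 of 94, against 64.0%. Taking the autosomal median as zero, 9 genes passed from below to above 0: Kcna10 (0.27), Kcna6 (0.087), Kcne1l (0.17), Kcnj1 (0.092), Kcnj3 (0.075), Kcnj5 (0.19), Kcnk1 (0.15), Kcnk18 (0.24) and Kcnt2 (0.17), and the Kcnmb median became 0.094. At the lower-coordinate end Kcnd3 (-0.62, the Kcnd median also -0.62), Kcnj3 (0.21) and Kcnq3 (0.56) changed sign. At the higher-coordinate end Kcnab1 (0.44), Kcnb2 (0.60), Kcnip1 (-0.83), Kcnj6 (-0.55), Kcnk10 (0.24) and the Kcnmb median (0.021) did. At the transcription start Kcnd3 (-0.62), Kcnip1 (-0.83), Kcnj3 (0.14), Kcnj6 (-0.55) and Kcnk10 (0.24) changed sign, as did the medians of Kcnd (-1.02, 2 genes), Kcnh (-0.037, 7 genes), Kcnq (-1.38, 1 gene) and Kcnt (-0.18, 1 gene), which rest on fewer genes there. No gene changed sign with the mean over the gene. Leaving out the genes of 250 kb or more was chosen after seeing the data.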

Other observations

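Subunits that form one channel included genes of like and of unlike score. The atrial channel opened by G proteins joins Kcnj3 (-0.23) with Kcnj5 (-0.12), and its neuronal form joins Kcnj3 with Kcnj6 (0.54) or Kcnj9 (1.58). These are midpoint scores, and at the transcription start Kcnj3 had 0.14 and Kcnj6 -0.55. The slow cardiac current needs Kcnq1 (0.81) and Kcne1 (0.82), which lie on chromosomes 7 and 16. Their scores were alike at the midpoints only. The ends of Kcnq1 had 1.36 and 1.15, and those of Kcne1 0.82 and 0.81. Kcnma1 (-1.21) pairs in brain with the beta subunit of Kcnmb4 (0.29) and in smooth muscle with that of Kcnmb1 (-0.71). Among genes of the A-type current, Kcnd2 (-1.24), Kcnip4 (-1.38), Dpp10 (-1.38) and the midpoint of Dpp6 (-0.52, with 0.30 and 0.42 at its ends) lay below 0. Kcnd1 (1.19), Kcnip2 (1.77) and Kcnip3 (0.90) lay above it. Kcnd3 (0.16) and Kcnip1 (0.14) lay above it at the midpoint, but had -0.62 and -0.83 at the transcription start.

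Both pore genes of the ATP-sensitive potassium channels adjoin the gene of the sulfonylurea receptor they assemble with. Kcnj11 (0.76) and Abcc8 (0.36) on chromosome 7 are separated by 3.57 kb, and Kcnj8 (0.087) and Abcc9 (0.29) on chromosome 6 by 16.2 kb. All 4 lay above 0. The members of each pair are closer than the smoothing width and do not give separate measurements.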
